A study of Homo sapiens with 4 samples.

Results

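The 42 genes described here carry out or license DNA replication, supply its nucleotides, or switch on the other genes of S phase. They were chosen by name, with earlier results of these data known, and each was read by the 1 probe set annotated to that symbol alone. All 42 were found among 20925 genes read that way. RNA came from MCF10A, a non-tumorigenic human breast epithelial cell line, untreated and grown in SFIHE medium. The 4 cell models carried a stable transfection of Her2 together with the H1047R variant of PIK3CA, of that PIK3CA variant alone, of Her2 alone, or of LacZ, a bacterial enzyme gene that serves as the control. Her2 is a receptor tyrosine kinase, and PIK3CA is the catalytic subunit of a lipid kinase that acts downstream of such receptors. Each model was measured on 1 array, so no value has a replicate error, no test compares models, and no difference can be set against a spread between replicates. The labels do not say whether a model is 1 clone or a pool.

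Before a cell copies its DNA, the origin recognition complex, CDC6 and CDT1 load the MCM helicase onto replication origins. CDC45 and the GINS complex then activate the helicase, and polymerases follow it with the sliding clamp PCNA and its loader RFC. Genes of this machinery are known targets of E2F transcription factors, some of which the retinoblastoma pocket proteins restrain. Cyclin E and its kinase take part in lifting that restraint. In bulk RNA, a larger share of cells in S phase and more transcript per cell cannot be told apart.

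All values below are on the log2 scale of the deposited table, where a difference of 1 means 2-fold. The arrays had medians of 1.13 to 1.17 over all probe sets, and between 53.5% and 54.2% of genes lay under a log2 value of 2, which is used below to mark low signal. Where values under 2 were raised to 2 before a difference was taken, it is called a floored difference. The probe set for ERBB2 (the gene of Her2, shared with MIR4728) went against the labels: it read 7.39 on the array labelled Her2+mutant PIK3CA, 8.48 on the array labelled mutant PIK3CA, 4.29 on the array labelled Her2 and 5.96 on the LacZ array. Each array is therefore named by its label, and the one labelled Her2+mutant PIK3CA is called the double-label array. MCF10A identity was checked with 8 epithelial genes, and KRT5, a basal keratin, read 7.14, 7.52, 7.08 and 7.27 in the order just used. Among these genes, 8, 8, 7 and 7 reached a log2 value of 2, with summed linear values of 1295, 4420, 2133 and 3102. E-cadherin (CDH1) read 5.07 on the double-label array, against 9.13, 8.94 and 9.34 on the other 3. Of the 8 epithelial genes, 5 were at least 2-fold lower on the double-label array than on the LacZ array, against 4.44% of all genes. Among them CDH3 differed by -3.24 and EPCAM by -2.22. KRT14 alone was higher by as much, and it read under 2 on the arrays labelled Her2 (1.80) and LacZ (1.47). Of 8 fibroblast markers, 4, 4, 3 and 3 reached a log2 value of 2, with summed linear values of 381, 55.0, 407 and 45.6. Among them DPT read 7.86 on the double-label array, 3.69 on the array labelled mutant PIK3CA, 8.38 on the array labelled Her2 and 3.41 on the LacZ array. LUM read 6.26 on the double-label array and 0.52, 0.63 and 0.78 on the others, and DCN read 5.06 and 1.15, 0.57 and 0.73. COL1A2 and PDGFRB lay under 2 on all 4. Of 4 blood cell markers, 0, 1, 1 and 1 reached 2. Of 8 housekeeping genes measured (12 were listed), 3 were at least 2-fold higher on the double-label array than on the LacZ array. They were B2M at 2.31, HPRT1 at 1.53 and GUSB at 1.28, and 0 were lower by as much. The shares over all genes were 6.51% higher and 4.44% lower. The housekeeping median was 0.47, with TBP lowest at -0.31, against a median of -0.04 over all genes. The part of these shifts in the results below was not tested.

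All 42 replication genes had their highest value on the double-label array, as did 25.9% of all genes. In 38 of the 42 the double-label array was at least 2-fold above each of the other 3, against 2.62% of all genes. The gap from the double-label array to the next array had a median of 1.85 log2 units over the members (range 0.62 to 4.88), whereas the other 3 arrays spanned a median of only 0.48. That gap was wider than the range of the other 3 arrays in 42 of 42 members, compared with 9.58% of all genes. The range of the other 3 arrays was under 1 log2 unit in 35 of the 42 (83.3%), against 90.7% of all genes. Among genes at 2 or more on all 4 arrays, it was under 1 in 25 of 27 members (92.6%) and in 85.7% of genes. The order of the shares thus changed when genes with low values were left out. Of the 34 members that reached 2 on at least 1 of those arrays, the array labelled mutant PIK3CA was the highest of the 3 for 20, the LacZ array for 10 and the array labelled Her2 for 4.

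**Figure D1:**
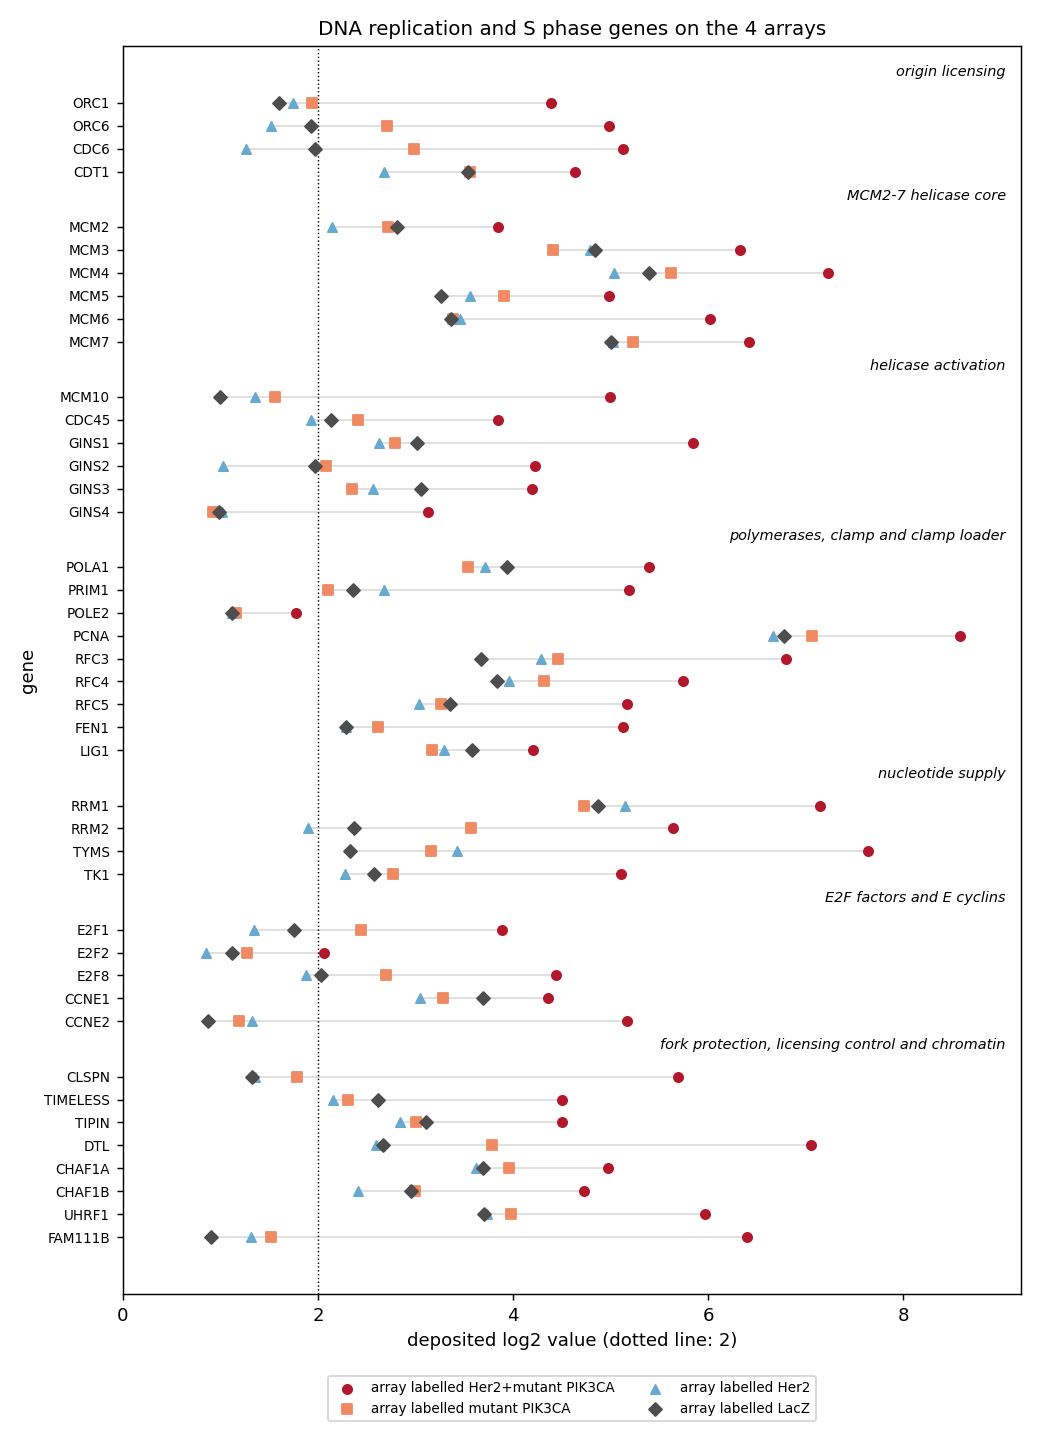
Deposited log2 values (horizontal axis) of the 42 genes (vertical axis, grouped by role) on the arrays labelled Her2+mutant PIK3CA (red circles), mutant PIK3CA (orange squares), Her2 (blue triangles) and LacZ (grey diamonds), 1 array each; the dotted line marks a value of 2. The red circle is the rightmost symbol in all 42 genes. Positions of different genes are not comparable as amounts of RNA.

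Between the double-label array and the LacZ array, 38 of the 42 members were higher by 2-fold or more and 0 were lower by as much. Among all genes 6.51% were higher and 4.44% lower by that measure. The member median was 2.14 log2 units, against -0.04 over all genes. Large differences were found in TYMS (thymidylate synthase) at 5.31, DTL, which targets CDT1 for destruction, at 4.39, and RRM2 at 3.27. FAM111B, a protease-like protein, differed by 5.50, CLSPN (claspin), a checkpoint adaptor at the fork, by 4.36, CCNE2 by 4.29 and MCM10 by 4.00, but these 4 lay under 2 on the LacZ array. Their floored differences were 4.40, 3.69, 3.17 and 3.00, which puts TYMS above FAM111B. The 4 members under 2-fold were LIG1 at 0.63, CCNE1 at 0.67, POLE2 at 0.66 and E2F2 at 0.94, and the floored differences of POLE2 and E2F2 were 0.00 and 0.06.

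Many members shared a feature of their promoters. Promoter words were not used to choose them, but genes of this machinery are known E2F targets. The share of E2F words is therefore not independent of the choice. RefSeq promoter windows (GRCh38.p14, 250 bases before to 50 after the gene's start) matched 36 of the 42. The promoters of FAM111B, CCNE2, E2F8, MCM4, MCM5 and GINS4 were not among them and were not searched. The words TTTCCCGC, TTTGGCGC, TTTGCCGC and TTTCGCGC, common forms of the E2F binding site, were looked for first. At least 1 stood in 20 of the 36 windows (55.6%), against 4.44% of 15842 protein-coding promoters. The word CCAAT stood in 63.9% of the member windows and 36.4% of protein-coding ones. The CHR words TTTGAA and TTCGAA, known from promoters of mitotic genes, stood in 5.56% of the member windows and 13.5% of protein-coding ones. Each set of words was searched on both strands and counted separately, overlaps included. Among 11 windows of the mitotic genes described below, the E2F, CCAAT and CHR words stood in 1, 11 and 8. The E2F words were unevenly spread, as MCM6 held 4 and several members held none. The 20 members with an E2F word had a median difference of 1.97 between the double-label and LacZ arrays, and the 16 without one had 2.09, so presence of a word did not go with a larger difference. A match is a run of letters, not a measured binding site. Of the searched members that hold an E2F word, the 4 with the largest differences are shown. Each runs from 130 bases before to 20 after the gene's start, with the word in capitals, read in the gene's own direction (TYMS chr18:657523-657672, plus strand; DTL chr1:212035618-212035767, plus strand; CLSPN chr1:35769959-35770108, minus strand; CDC6 chr17:40287749-40287898, plus strand).
TYMS: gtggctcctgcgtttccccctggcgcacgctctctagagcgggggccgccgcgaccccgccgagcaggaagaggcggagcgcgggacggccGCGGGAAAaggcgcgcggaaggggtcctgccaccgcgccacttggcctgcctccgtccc
DTL: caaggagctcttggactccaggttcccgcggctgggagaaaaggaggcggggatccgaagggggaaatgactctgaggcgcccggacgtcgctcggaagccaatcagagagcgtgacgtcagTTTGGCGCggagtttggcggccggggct
CLSPN: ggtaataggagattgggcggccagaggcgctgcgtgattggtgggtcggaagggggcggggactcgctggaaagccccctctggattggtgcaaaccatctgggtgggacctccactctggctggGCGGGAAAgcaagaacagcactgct
CDC6: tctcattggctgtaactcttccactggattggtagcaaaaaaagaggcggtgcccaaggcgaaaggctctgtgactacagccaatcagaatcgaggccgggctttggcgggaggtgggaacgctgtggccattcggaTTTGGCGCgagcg
In TYMS, DTL and CLSPN the word began 39, 8 and 5 bases before the gene's start, and in CDC6 it began 7 bases after it.

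The 4 origin licensing genes were all at least 2-fold higher on the double-label array than on each of the other 3. ORC1, the largest subunit of the origin recognition complex, read 4.39 on the double-label array, 1.94 on the array labelled mutant PIK3CA, 1.74 on the array labelled Her2 and 1.60 on the LacZ array. ORC6, another subunit of that complex, read 4.98, 2.70, 1.52 and 1.93 in the same order. Both were low on the LacZ array, and ORC6 lay above 2 on the array labelled mutant PIK3CA. CDC6, the ATPase that joins the complex to load the helicase, read 5.13, 2.98, 1.27 and 1.97. It lay under 2 on the arrays labelled Her2 and LacZ, and its difference of 1.01 between the arrays labelled mutant PIK3CA and LacZ was 0.98 when floored. CDT1, the helicase-loading partner that geminin inhibits, read 4.63, 3.55, 2.68 and 3.54. Its single-label difference was 0.01 for mutant PIK3CA and -0.86 for Her2, and its double-label difference from LacZ was 1.09. Under quantile normalization CDT1 differed by 0.99 from LacZ and by 0.98 from mutant PIK3CA, just under 2-fold.

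The 6 subunits of the MCM2-7 helicase, which act as 1 ring, were also all at least 2-fold higher on the double-label array than on each of the others. Their differences from the LacZ array were not equal and ran from 1.04 in MCM2 to 2.65 in MCM6. MCM6 read 6.01 on the double-label array, 3.38 on the array labelled mutant PIK3CA, 3.46 on the array labelled Her2 and 3.36 on the LacZ array. The 3 lower values lay within 0.10 log2 units of each other. MCM4 read 7.23, 5.62, 5.03 and 5.39, and MCM2 read 3.84, 2.72, 2.14 and 2.81. MCM3, MCM5 and MCM7 differed by 1.49, 1.73 and 1.42 between the double-label and LacZ arrays. Under quantile normalization MCM2 was under 2-fold against LacZ (0.90) and mutant PIK3CA (0.99), and so was MCM5 against mutant PIK3CA (0.98).

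Helicase activation genes showed a wider range. MCM10, an initiation factor that helps the helicase open the origin, read 5.00 on the double-label array and 1.56, 1.36 and 0.99 on the arrays labelled mutant PIK3CA, Her2 and LacZ. It lay under 2 on all arrays but 1. CDC45, which joins MCM and GINS in the active helicase, read 3.84, 2.41, 1.92 and 2.13. Of the 4 GINS genes, GINS1 read 5.85, 2.79, 2.62 and 3.01, and GINS2 read 4.22, 2.08, 1.02 and 1.96. The values of GINS2 on the arrays labelled Her2 and LacZ were both under 2. GINS3 read 4.20, 2.35, 2.56 and 3.05 and had the lowest mutant PIK3CA minus LacZ difference, at -0.70. GINS4 read 3.13 on the double-label array and between 0.92 and 1.01 on the others, a floored difference of 1.13.

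Of the 9 polymerase, clamp and clamp loader genes, 7 were at least 2-fold higher on the double-label array than on the LacZ array. PCNA, the sliding clamp, read 8.58 on the double-label array, 7.06 on the array labelled mutant PIK3CA, 6.66 on the array labelled Her2 and 6.78 on the LacZ array. PRIM1, the catalytic primase subunit, read 5.19, 2.11, 2.68 and 2.36, and POLA1, the catalytic subunit of polymerase alpha, read 5.40, 3.53, 3.72 and 3.94. Both had their lowest value on the array labelled mutant PIK3CA. RFC3, RFC4 and RFC5, small subunits of the clamp loader, differed from the LacZ array by 3.12, 1.90 and 1.81. FEN1, the nuclease that trims Okazaki fragments, read 5.13, 2.61, 2.28 and 2.29. LIG1, the ligase that joins those fragments, read 4.20, 3.16, 3.29 and 3.57. The 2 genes act one after the other on the lagging strand, and their differences from LacZ were 2.84 and 0.63. POLE2, a subunit of polymerase epsilon, read 1.77, 1.16, 1.12 and 1.12 and stayed under 2 throughout, so its values carry little information.

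All 4 nucleotide supply genes were at least 2-fold higher on the double-label array than on each of the others. TYMS, which makes thymidylate, read 7.64 on the double-label array, 3.16 on the array labelled mutant PIK3CA, 3.42 on the array labelled Her2 and 2.33 on the LacZ array. No other member reached 2-fold between the array labelled Her2 and the LacZ array, where TYMS differed by 1.10. RRM2, the regulated small subunit of ribonucleotide reductase, read 5.64, 3.57, 1.90 and 2.37. RRM1, the large subunit of that enzyme, read 7.14, 4.73, 5.14 and 4.87. RRM2 thus separated the array labelled mutant PIK3CA from the LacZ array by 1.20 log2 units and RRM1 by -0.14. TK1, the cytosolic thymidine kinase, read 5.10, 2.76, 2.28 and 2.57.

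The E2F factors and E cyclins were mixed, with 3 of 5 at least 2-fold higher on the double-label array than on the LacZ array. E2F1, an activator, read 3.89 on the double-label array, 2.44 on the array labelled mutant PIK3CA, 1.35 on the array labelled Her2 and 1.75 on the LacZ array. E2F8, a repressor of the family, read 4.44, 2.70, 1.87 and 2.03. Both were highest on the double-label array and next on the array labelled mutant PIK3CA. E2F2, another activator, read 2.06, 1.28, 0.85 and 1.12. The E cyclins, which share a kinase partner, differed from each other. CCNE2 read 5.17, 1.19, 1.32 and 0.88, whereas CCNE1 read 4.36, 3.28, 3.04 and 3.69. The floored difference between the double-label and LacZ arrays was 3.17 in CCNE2 and 0.67 in CCNE1.

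All 8 genes of fork protection, licensing control and chromatin were at least 2-fold higher on the double-label array than on each of the others. FAM111B read 6.40 on the double-label array, 1.52 on the array labelled mutant PIK3CA, 1.32 on the array labelled Her2 and 0.90 on the LacZ array. CLSPN read 5.69, 1.79, 1.35 and 1.32, and DTL read 7.05, 3.78, 2.60 and 2.66. FAM111B and CLSPN were low on 3 arrays, while DTL was also 1.12 higher on the array labelled mutant PIK3CA than on the LacZ array. TIMELESS and TIPIN, which form the fork protection complex, differed by 1.88 and 1.40 between the double-label and LacZ arrays. CHAF1A and CHAF1B, subunits of the histone chaperone CAF-1, differed by 1.29 and 1.77, and UHRF1, which reads hemimethylated DNA behind the fork, by 2.27. These 5 genes each lay above 2 on all 4 arrays. CHAF1A differed by 1.02 from the array labelled mutant PIK3CA, which became 0.92 under quantile normalization and 0.97 under cyclic loess.

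Low signal bears on the size of several of these differences. ORC1, MCM10, GINS4, POLE2, E2F2, CCNE2, CLSPN and FAM111B, 8 members in all, lay under 2 on the 3 arrays other than the double-label one. Their order on those arrays was not interpreted. Between the double-label and LacZ arrays, the floored differences were 2.39 in ORC1, 1.13 in GINS4, 0.06 in E2F2 and 0.00 in POLE2, beside the 4 given above. The floored median over the 42 members was 1.89. TYMS and DTL, above 2 on all 4 arrays, differed by 5.31 and 4.39.

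Subunits of 1 complex differed in size of difference, and the unlisted subunits of the same complexes were read for comparison. Members were listed with earlier results of these data known, so their contrast with unlisted subunits is not an independent result. In the origin recognition complex, ORC6 and ORC1 differed by 3.06 and 2.79 between the double-label and LacZ arrays, whereas ORC2, ORC3, ORC4 and ORC5 differed by 0.21, 0.86, 0.19 and -0.00. In the clamp loader, RFC2 differed by 2.12 with the 3 listed small subunits, and the large subunit RFC1 by 0.46. POLA2 differed by 1.71 and PRIM2 by 0.65. Of the 4 subunits of polymerase delta, 0 were at least 2-fold higher, with values from -0.55 (POLD4) to 0.49 (POLD1). In polymerase epsilon 0 of 4 were (-0.15 to 0.66), but POLE2 and POLE4 lay under 2 on all 4 arrays. The values of those subunits carry little information. The E2F family divided as well. E2F7, a repressor related to E2F8, differed by 3.21, while E2F3, E2F4, E2F5 and E2F6 differed by 0.22, -0.56, -0.39 and 0.10. Among pocket proteins, RBL1 (p107) differed by 2.56, RB1 by 1.69 and RBL2 (p130) by 0.22. Over all 61 measured genes of 63 listed around the members, 24 passed 2-fold upward and 0 downward, and the median was 0.68.

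**Figure D2:**
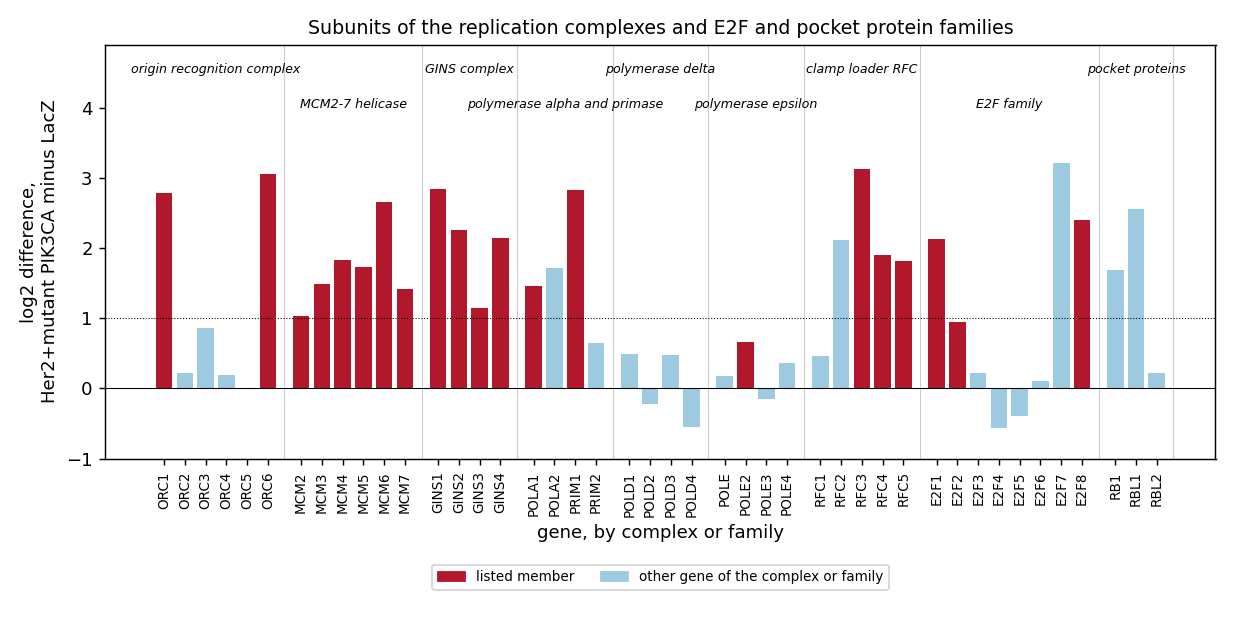
Log2 difference between the double-label array and the LacZ array (vertical axis, bars from 0) for subunits of replication complexes and for the E2F and pocket protein families (horizontal axis), 1 array per model and no error bars. Red bars are listed members and blue bars other genes; the dotted line marks 2-fold. ORC1 and ORC6 reach 2.79 and 3.06 while the other ORC subunits stay at or under 0.86, and all 4 polymerase delta subunits lie between -0.55 and 0.49.

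The single-label arrays lay much nearer the LacZ array. Between the array labelled mutant PIK3CA and the LacZ array, 3 of 42 members were higher by 2-fold or more, RRM2 at 1.20, DTL at 1.12 and CDC6 at 1.01, and 0 were lower by as much. Over all genes 2.61% were higher and 1.93% lower by that much. The member median was 0.23, and 0.02 when floored. Among members above 2 on both arrays, TYMS, RFC3 and E2F8 followed below the 2-fold line at 0.83, 0.79 and 0.66. The lowest were GINS3 at -0.70, MCM3 at -0.43, and LIG1, POLA1 and CCNE1 at -0.41 each. The share of members past 2-fold (7.14%) rests on 3 genes, and CDC6 was under the line when floored.

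Between the array labelled Her2 and the LacZ array, TYMS alone (1 of 42, 2.38%) was higher by 2-fold or more, and 0 members were lower by as much. The shares over all genes were 1.86% and 1.67%, so the member count was near the background. The member median was -0.14, and -0.00 when floored, so no direction is read from it. Among members at 2 or more on both arrays, RFC3 differed by 0.62, PRIM1 by 0.32 and MCM5 by 0.31, while CDT1 differed by -0.86, MCM2 by -0.67 and CCNE1 by -0.65. CDC6 and GINS2, under 2 on both arrays, had floored differences of 0.00.

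**Figure D3:**
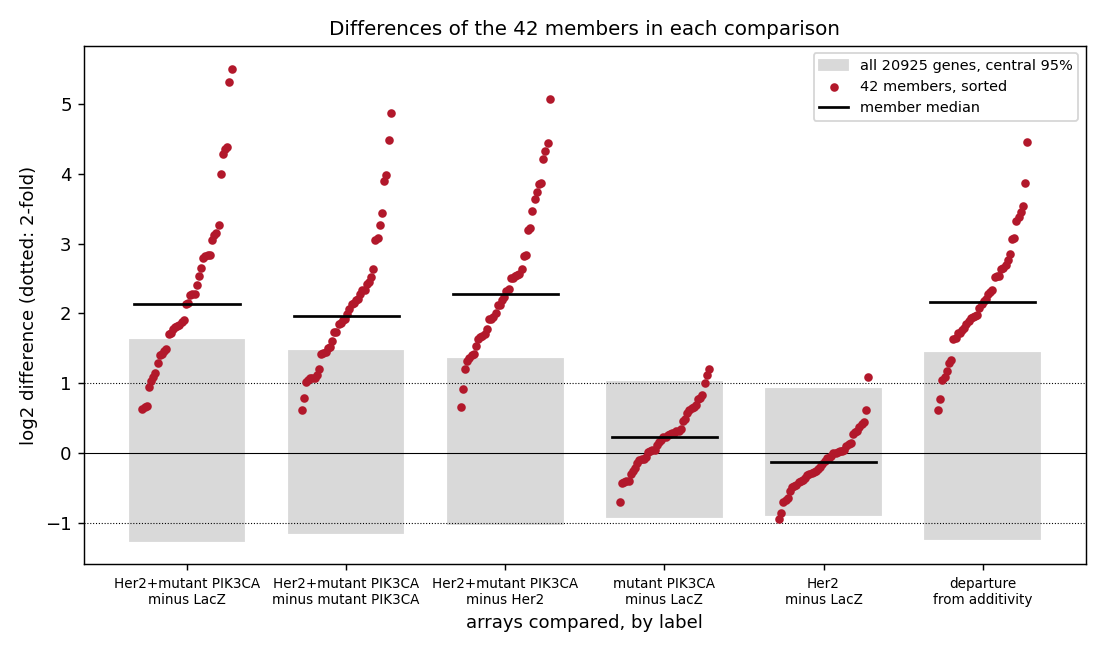
Log2 differences (vertical axis) of the 42 members, sorted within each comparison (horizontal axis, red points), with their median (black line) and the central 95% of all 20925 genes (grey box). The 3 comparisons of the double-label array have member medians of 2.14, 1.96 and 2.27, and the single-label comparisons with LacZ have 0.23 (mutant PIK3CA) and -0.14 (Her2). Departure from additivity is the double-label value minus both single-label values plus the LacZ value.

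The effect of each label was read a second time on the other label's background, in a pair of arrays that shares none with the first. For the Her2 label this pair was the double-label array against the array labelled mutant PIK3CA, where 40 of 42 members were at least 2-fold higher and 0 lower, with a median of 1.96 and exceptions in POLE2 (0.62) and E2F2 (0.78). Over all genes 5.29% were higher and 3.48% lower there. TYMS differed by 4.48, DTL by 3.27, PRIM1 by 3.08 and GINS1 by 3.06. Floored differences were 4.40 in FAM111B, 3.69 in CLSPN, 3.17 in CCNE2 and 3.00 in MCM10. Only TYMS was at least 2-fold higher in both pairs, at 1.10 and 4.48, against 0.616% of all genes.

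For the mutant PIK3CA label the second pair was the double-label array against the array labelled Her2. There 40 of 42 members were at least 2-fold higher and 0 lower, with a median of 2.27, against 4.41% and 2.64% of all genes. POLE2 (0.66) and LIG1 (0.92) were the members under 2-fold. DTL differed by 4.45, TYMS by 4.22 and GINS1 by 3.23. Floored differences were 4.40 in FAM111B, 3.69 in CLSPN, 3.64 in RRM2, 3.13 in CDC6 and 0.06 in E2F2. CDC6, RRM2 and DTL were at least 2-fold higher in both pairs, 3 of 42, against 0.755% of all genes. They are the same 3 members that passed in the first pair, where CDC6 was at 0.98 when floored. RRM2 differed by 1.20 in the first pair and 3.74 in the second, and DTL by 1.12 and 4.45. The 3 comparisons that use the double-label array share it and are not independent of each other.

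On the deposited values the double-label difference exceeded the sum of the single ones in all members. Departure from additivity, the double-label value minus both single-label values plus the LacZ value on the log2 scale, was positive in 42 of 42 members and at least 1 in 40 of them. Over all genes it was at least 1 in 5.81% and at most -1 in 4.34%. The member median was 2.16, against -0.00 over all genes. Floored, it was above 0 in 41 members, at 0 in POLE2 and 0.06 in E2F2, and at least 1 in 39. It was 3.45 in GINS1, 3.39 in TYMS and 3.33 in DTL, and 0.78 in MCM5 and 1.09 in CHAF1A. The floored values of FAM111B, CLSPN and CCNE2 were 4.40, 3.69 and 3.17, against 4.46, 3.87 and 3.54 as deposited. GINS1 lay above 2 on all 4 arrays, at 5.85, 2.79, 2.62 and 3.01, so its departure does not rest on low signal.

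Genes of mitosis, the phase that follows S phase and G2, were spaced differently across the arrays. Between the array labelled mutant PIK3CA and the LacZ array, all 12 mitotic genes read passed 2-fold upward on the deposited values. Their median was 1.91 and their range ran from 1.11 in CCNB1 (cyclin B1) to 3.34 in BUB1, a spindle checkpoint kinase. The mitotic differences were not floored. Some of these genes lay under 2 on the LacZ array, among them BUB1 at 1.39 and CDK1 at 1.66. With a floor of 2, CDK1, at 2.94 on the array labelled mutant PIK3CA, would come just under 2-fold. CENPF, above 2 on both arrays, differed by 3.17. The 42 replication genes had a median of 0.23 in that pair (0.02 when floored). As deposited, 2 of them, RRM2 and DTL, lay above the lowest mitotic gene. MKI67, the proliferation marker, read 8.56 on the double-label array, 6.76 on the array labelled mutant PIK3CA, 3.39 on the array labelled Her2 and 4.60 on the LacZ array. Between the double-label array and the array labelled mutant PIK3CA the lists lay close together, with medians of 1.96 for replication and 1.85 for mitotic genes. Between the array labelled Her2 and the LacZ array, 3 of 12 mitotic genes were at least 2-fold lower, among them CDC20 at -1.29, with a median of -0.37. With 1 array per model the difference between the lists was not tested.

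**Figure D4:**
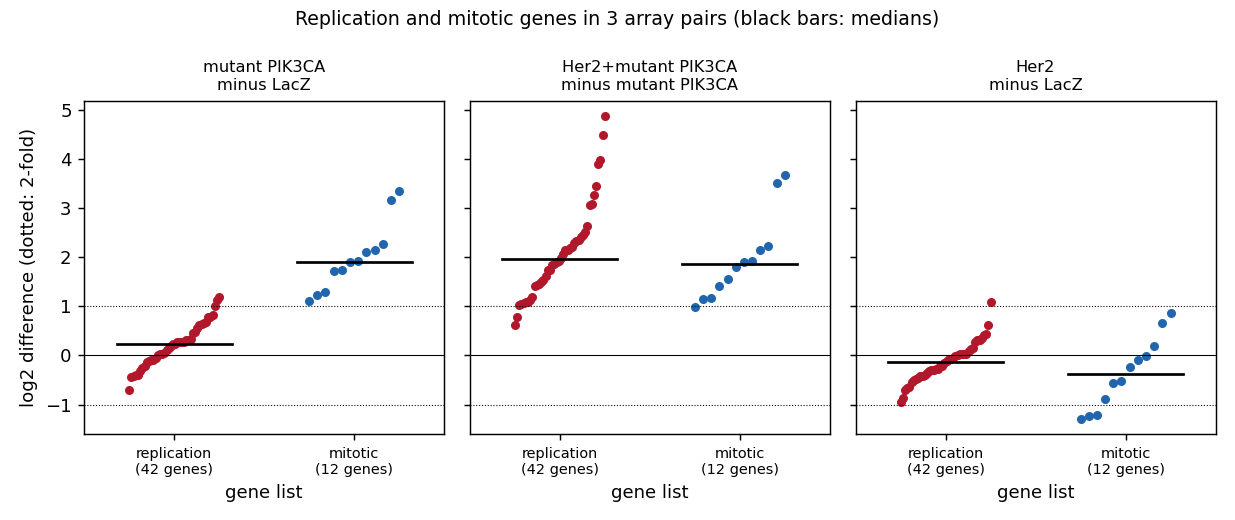
Log2 differences (vertical axis) of the 42 replication genes (red) and 12 mitotic genes (blue), sorted within each list, in 3 array pairs; black bars are medians and dotted lines mark 2-fold. The lists are apart between the arrays labelled mutant PIK3CA and LacZ (medians 0.23 and 1.91) and overlap between the double-label array and the array labelled mutant PIK3CA (1.96 and 1.85).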

How the data were processed

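RNA from 4 MCF10A models, 1 array each, was labelled as biotinylated cDNA, per the labels' protocols. The deposited values are log2 values per probe set that the authors made with RMA in oligo, per the submitters' processing notes. That method corrects background, equalises arrays and combines probes, and it can compress differences near background. No source used here gives versions or filters. Base 2 is inferred from the method and from the range of the values.

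Of 53617 probe sets, 23871 had 1 gene symbol in the platform annotation, 1842 had several and 27904 were unnamed here. Symbols were updated by gene identifier with RefSeq (GRCh38.p14), which changed 90. Small RNAs and the transfected genes were left out, and for genes with several probe sets the one with the highest mean was used, leaving 20925 genes. All 42 members had 1 probe set each.

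Log2 differences were computed with Python 3.11.15 and pandas 2.3.3, and genes past 2-fold were counted with no filter on low values. With 1 array per model there is no test and no p-value, and precision is limited by the number of arrays. The counting was tested on simulated data. Alternatives were 2 filters on low values, quantile and cyclic loess normalization (limma 3.58.1, 3 iterations), the mean of a gene's probe sets, a floor of 2 and a 1.5-fold threshold. Any member could be named. Of other genes, up to 6 per list were to be named, and subunits of the same complex were added after their values were seen. The members and lists were chosen with earlier results of these data known.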

Additional observations from a re-analysis of the deposited data

Results flagged for a closer look

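The median of the replication genes lay on opposite sides of 0 in the 2 pairs of arrays that measure the Her2 label. Without mutant PIK3CA, between the array labelled Her2 and the LacZ array, the member median was -0.14. With it, between the double-label array and the array labelled mutant PIK3CA, the member median was 1.96. The first median lies near 0, and no direction is read from it. With values under 2 raised to 2 it was -0.00, with 21 members below 0, 12 at 0 and 9 above. It was -0.13 under quantile normalization and -0.13 under cyclic loess. The 0.01 among members reaching 5 rests on a filter that 18 of the 22 passed on the double-label array alone. The ERBB2 probe set went against the labels of the single-label arrays. Were those arrays exchanged, the Her2 medians would be 0.23 and 2.27, on the same side of 0. The difference between the pairs was not tested, since each model has 1 array.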

How the results depend on the processing

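Quantile normalization, cyclic loess and a floor of 2 left each count of members past the threshold within 1.5 times its value, and none of the member differences of at least 1 log2 unit turned direction under them. The mean of all probe sets could change no member value, since each member has 1 probe set. Quantile normalization brought the count between the double-label array and the array labelled mutant PIK3CA to 34, the lowest under these settings, as CDT1, MCM2, MCM5, LIG1, CCNE1 and CHAF1A came under 2-fold. Filters changed the counts because they kept fewer members. Among the 22 members that reached a value of 5 on at least 1 array, 22 passed in each of the 3 double-label comparisons and in departure from additivity, where 13.8%, 10%, 9.09% and 9.49% of the genes kept did so upward. All but 4 of them (MCM4, MCM7, PCNA and RRM1) reached 5 on the double-label array alone, 18 in all, so that count is nearly set by the filter and supports nothing. Among the 26 members with a mean of at least 3, the counts were 24 against LacZ, 26 against mutant PIK3CA, 25 against Her2 and 25 for departure, and 11.6%, 8.44%, 7% and 8.37% of the genes kept passed upward. That mean includes the double-label array, so some members were kept only through their high value there. PRIM1, at 5.19 there and 2.11, 2.68 and 2.36 on the others, is an example. These counts are therefore no separate support. At 1.5-fold, the comparison of mutant PIK3CA with LacZ had 11 members past the threshold (10 higher and 1 lower), against 8.43% and 8.06% of all genes. At 1.5-fold, the comparison of Her2 with LacZ had 7 members past it, 2 higher and 5 lower, against 7.38% and 8.05% of all genes, so its direction turned and no direction is read from it. No paired analysis was possible because each model has 1 array. Low signal limits the size of the differences of the 8 members under 2 on the 3 other arrays.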

Other observations

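Of 7 further replication chromatin genes, 6 were at least 2-fold higher on the double-label array than on the LacZ array, and of 15 further origin and helicase genes 7 were, against 6.51% of all genes. The rest included SLBP at 0.14, TOPBP1 at 0.68, RECQL4 at 0.61, MCM9 at 0.00 and ORC5 at -0.00. HELLS, a chromatin remodeller needed for DNA methylation, read 5.25 on the double-label array, 1.33 on the array labelled mutant PIK3CA, 1.51 on the array labelled Her2 and 1.23 on the LacZ array. CDC7, the kinase that triggers helicase activation, read 5.35, 1.53, 2.59 and 1.89. Its activating subunit DBF4 read 6.55, 5.07, 4.76 and 4.26, a smaller difference from LacZ (2.28 against 3.46 for CDC7). ATAD2 differed from LacZ by 3.36 on the double-label array and by 1.15 on the array labelled mutant PIK3CA.

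Some genes of nucleotide supply did not follow the listed ones. DCTPP1, IMPDH1 and IMPDH2 differed by -0.40, -0.35 and -0.40 between the double-label and LacZ arrays, and DUT by 0.01. RRM2B, the alternative small subunit of ribonucleotide reductase, differed by 0.97, against 3.27 for RRM2. SAMHD1, an enzyme that degrades deoxynucleotides, differed by 1.77.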
